A study of Homo sapiens with 6 samples.

Results

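The 3 human DNA methyltransferase genes and the 3 TET dioxygenase genes were followed in Ker-CT keratinocytes depleted of KMT2C. The members are DNMT1, DNMT3A, DNMT3B, TET1, TET2 and TET3, taken by name, and they are 6 of the 58302 gene entries in the table. All 6 passed the filter on low counts, as did 15063 genes in all. Ker-CT is an established line of human skin keratinocytes that carries telomerase and CDK4 for unlimited growth. The study compared 3 libraries of cells given siRNA against KMT2C (siKMT2C) with 3 libraries of cells given control siRNA (siNC). Cells of both groups had 24 h of M5, a psoriasis-type cocktail of oncostatin M, TNF-α, IL-22, IL-1α and IL-17A at 10 ng/ml per cytokine. No library of unstimulated cells was analysed here, so these levels are those of cytokine-treated cells. The labels do not say whether the libraries of a group came from separate cultures, and p-values then measure only the spread between libraries, which may be technical.

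DNA methylation in mammals sits mainly on the cytosine of CpG dinucleotides. DNMT1 copies the mark onto the new strand after replication, while DNMT3A and DNMT3B set it de novo. TET1, TET2 and TET3 oxidise 5-methylcytosine with iron and 2-oxoglutarate, which opens the way to its removal. In the epidermis DNMT1 is known for holding progenitor cells in the undifferentiated state. KMT2C, the depleted gene, encodes a histone H3 lysine 4 methyltransferase, and the DNMT3 proteins read the unmethylated form of that lysine. RNA was the measured molecule in these samples, so neither DNA methylation nor enzyme activity is reported.

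The libraries held from 14409277 to 17539519 counts, 98012842 in all. KMT2C was at 32.0, 30.8 and 27.3 CPM (read counts scaled to library size) in siKMT2C and at 87.9, 82.0 and 72.6 CPM in siNC, with an edgeR adjusted p of 0.00786. That call was lost without siKMT2C replicate 1 (adjusted p = 0.0634), siKMT2C replicate 2 (0.0507) or siNC replicate 2 (0.0593). Among 10 keratinocyte markers all were detected, with summed levels from 13905 to 21996 CPM. None was called by edgeR, with 3 positive and 7 negative values. TP63 (log2 fold change -0.69, SE 0.20) and ITGA6 (-0.51, SE 0.11) were lower in siKMT2C without overlap. COL17A1 (0.72, SE 0.16) was higher without overlap. DESeq2 called TP63, ITGA6 and COL17A1 (adjusted p of 0.0449, 0.0103 and 0.00515). Of all genes 12.3% were lower and 11.8% higher without overlap. The markers PTPRC, CD3E, PECAM1, CDH5, SOX10, TYR and DCT had no count in any library. Of the same lists, the melanocyte markers MLANA, PMEL and TYRP1 had 103, 122 and 48 counts in all. The immune markers CD79A and LYZ had 19 and 1, and the endothelial markers VWF and TEK had 3 each. The summed level of 8 fibroblast markers was 13.7 to 17.7 CPM in siKMT2C and 21.1 to 31.5 CPM in siNC, most of it COL1A1, and that of 5 endothelial markers, nearly all KDR, was 2.95 to 3.73 against 8.98 to 10.6 CPM. KDR was called lower (adjusted p = 0.0135), a call lost without siKMT2C replicate 1, 2 or 3 or siNC replicate 2. Of the fibroblast markers COL1A1 and DCN were each lower without overlap, and DESeq2 called both (adjusted p of 0.026 and 0.0117). COL3A1 had a positive value and was not called (0.78, SE 0.52). The summed fibroblast marker level, that of KDR, and those of TP63, ITGA6 and COL17A1 move with the groups. Their part in the results was not tested. The summed levels of 6 melanocyte and 6 immune markers overlapped between the groups, at 2.03 to 3.38 and 9.78 to 14.9 CPM, and most of the latter was CD68. The immune marker CD14 was itself lower without overlap, at 0.183, 0.321 and 0.123 CPM in siKMT2C and 0.973, 0.969 and 1.07 CPM in siNC (60 counts in all, edgeR adjusted p = 0.0534), and passed the threshold with a replicate block (adjusted p = 0.0389) and after GC and length correction (0.0277). Its part in the results was not tested. Replicate 3 of both groups deviated in the same direction: the deviations of these libraries from the group means, over all genes tested, had a correlation of 0.39.

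None of the 6 genes passed the edgeR test over all genes tested (called at a Benjamini-Hochberg adjusted p under 0.05), where 1.5% of all genes did, 0.69% higher and 0.81% lower. At an unadjusted p under 0.05 there were 2 members, TET1 and TET2, beside 16.9% of all genes. DESeq2, which called 5.28% of all genes, called 1 member, TET2, and limma-voom, which called 1.42%, called none. The groups did not overlap for TET1 and TET2, both lower in siKMT2C, and 12.3% of all genes had groups that did not overlap in that direction. In bulk RNA fewer cells of a kind and less RNA per cell cannot be told apart. The median log2 fold change of the 6 members was -0.62, against 0.00 over all genes tested, with 2 positive and 4 negative values.

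**Figure D1:**
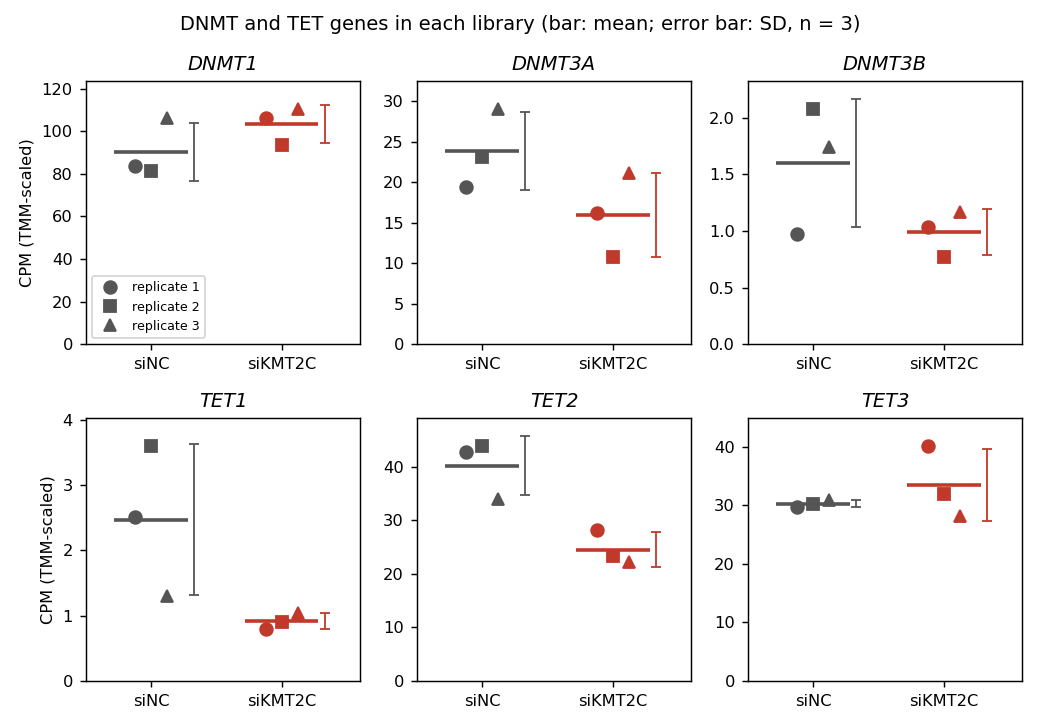
Level of each gene (CPM scaled by TMM, axes from 0) in every library; points are libraries with a marker shape per replicate number, bars are group means and error bars are SD (n = 3). TET2 and TET1 lie lower in all 3 siKMT2C libraries than in any siNC library, and the groups overlap in the other 4 genes.

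The deposited FPKM values, fragments scaled to gene length and library size, allow levels to be compared between genes. DNMT1 was the most abundant of the 6 in every library, at 5.98 ± 0.564 FPKM in siKMT2C and 5.33 ± 0.83 FPKM in siNC (SD, n = 3). TET3 came next, at 2.12 ± 0.399 and 1.96 ± 0.042 FPKM. TET2, at 0.89 ± 0.122 and 1.48 ± 0.197 FPKM, and DNMT3A, at 0.927 ± 0.306 and 1.41 ± 0.289 FPKM, followed, and their ranges over libraries overlapped in both groups, so their order is not settled. DNMT3B was at 0.167 ± 0.0352 FPKM in siKMT2C and 0.273 ± 0.0962 FPKM in siNC. TET1 was at 0.0972 ± 0.0133 and 0.268 ± 0.124 FPKM, and it overlapped DNMT3B in siNC and lay below it in siKMT2C. The gene lengths behind these FPKM values, worked out from the counts, exceeded the longest GENCODE 29 transcript for all of these genes but TET1, for which they were the same. Per kilobase of that transcript the order of TET2 and TET3 in siNC was turned, with 3.95 ± 0.539 for TET2 and 2.66 ± 0.0512 for TET3, in CPM per kilobase. By the same measure TET2 lay above DNMT3A in siNC without overlap, while their ranges in siKMT2C still overlapped.

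DNMT1, the maintenance methyltransferase (chromosome 19, 10133345 to 10231286, minus strand, GRCh38), had 106.4, 93.4 and 110.3 CPM in siKMT2C. In siNC it had 83.7, 81.1 and 106.0 CPM. The groups overlapped because siNC replicate 3 was as high as the siKMT2C libraries. Its log2 fold change was 0.20 (SE 0.15, edgeR adjusted p = 0.569), and the 95% interval reached from 90.1% to 146% of the control level. The value stayed positive in all 16 other settings tried, from 0.12 without siNC replicate 2 to 0.32 without siNC replicate 3. It was called in none of them. The adjusted p ran from 0.056 to 0.827 and was 0.0564 in edgeR after correction for transcript GC content and length (0.30, SE 0.076). DNMT1 exons share 83 bases with those of the neighbouring S1PR2, which had 770 counts in the 6 libraries against 9507 for DNMT1, and reads there may be split between both genes.

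DNMT3A, the main de novo enzyme of adult tissues (chromosome 2, 25227855 to 25342590, minus strand), had 16.1, 10.7 and 21.1 CPM in siKMT2C. In siNC it had 19.5, 23.0 and 29 CPM. In both groups replicate 3 was the highest, and siKMT2C replicate 3 was above siNC replicate 1. The log2 fold change was -0.58 (SE 0.26, edgeR adjusted p = 0.323), with a 95% interval from 43.9% to 102% of control. It was -0.35 without siKMT2C replicate 2, the lowest library, and -0.83 without siKMT2C replicate 3. DNMT3B, the other de novo enzyme (chromosome 20, 32762385 to 32809356, plus strand), was near the lower end of what was tested, with 126 counts in the 6 libraries. It had 17, 12 and 19 counts in siKMT2C and 17, 30 and 31 counts in siNC. Here siNC replicate 1 was as low as the depleted libraries, while the other siNC libraries were above them. The log2 fold change was -0.67 (SE 0.37, edgeR adjusted p = 0.411) and its 95% interval ran from 34.6% to 114% of control. DNMT3L, the catalytically inactive partner of the de novo enzymes that is known from germ cells, had no count in any library, which allows up to 0.0306 CPM over the 6 libraries (3 counts, counting error only).

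TET2 (chromosome 4, 105145875 to 105279816, plus strand), a TET enzyme without the CXXC domain for binding DNA, had 28.2, 23.3 and 22.2 CPM in siKMT2C. In siNC it had 42.8, 43.9 and 33.9 CPM. The lowest siNC library, replicate 3, was above the highest siKMT2C library, replicate 1. TET2 stood at 61.1% of control (log2 fold change -0.71, SE 0.16, n = 3 per group, edgeR adjusted p = 0.0817), with a 95% interval from 46.9% to 79.5%. Its exact two-sided permutation p was 0.1, the smallest that 3 libraries against 3 allow. The adjusted p was under 0.05 in 6 of the 16 other settings, among them 0.0141 in DESeq2, 0.0243 after correction for transcript GC content and length and 0.0297 without siNC replicate 3. These settings called more genes overall: 8.7% with that correction and 4.04% without siNC replicate 3. Over all 16 the log2 fold change ran from -0.83 to -0.59 and the adjusted p from 0.0141 to 0.274. The antisense gene TET2-AS1 lies within TET2 but shares no exon bases with it.

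TET1 (chromosome 10, 68560656 to 68694482, plus strand), a CXXC-domain TET enzyme best known from embryonic stem cells and germ cells, was a low transcript with 163 counts in the 6 libraries. It had 13, 14 and 17 counts in siKMT2C and 44, 52 and 23 counts in siNC. The siKMT2C libraries were close together, while in siNC replicate 3 had fewer counts than the other libraries. In CPM the values were 0.795, 0.899 and 1.04 against 2.52, 3.60 and 1.295, and the groups did not overlap. TET1 stood at 37.4% of control (log2 fold change -1.42, SE 0.41, edgeR adjusted p = 0.139), with a 95% interval from 19.4% to 72.2%. Of all genes tested, 98.8% had a smaller absolute log2 fold change and 13.2% a lower mean CPM. The exact two-sided permutation p was again 0.1. Without siNC replicate 3 TET1 passed the edgeR threshold (-1.74, adjusted p = 0.0346), and the adjusted p over all 16 other settings ran from 0.0346 to 0.382.

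TET3 (chromosome 2, 73986404 to 74108176, plus strand), the TET enzyme of the zygote and of many differentiated cells, had 40.2, 32.0 and 28.2 CPM in siKMT2C. In siNC it had 29.7, 30.3 and 30.9 CPM. The control libraries agreed closely, and the depleted libraries lay on both sides of them. The log2 fold change was 0.14 (SE 0.16, edgeR adjusted p = 0.712), with a 95% interval from 85.4% to 143% of control. Without siKMT2C replicate 1 it was -0.01.

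**Figure D2:**
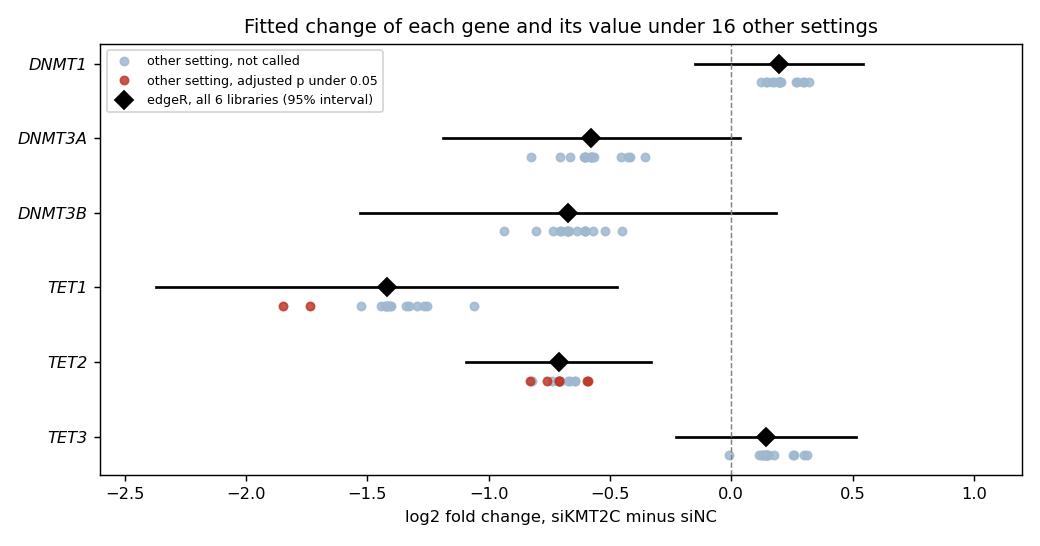
Log2 fold change of each gene, siKMT2C minus siNC; the diamond with its line is the edgeR value over all 6 libraries with the 95% interval, and the dots below it are the 16 other settings, red where the adjusted p was under 0.05. The intervals of TET1 and TET2 lie below 0 and hold red dots (2 and 6), and those of the other 4 genes cross 0 and hold none.

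Added up within a family, the level of the methyltransferases was 7.32, 6.09 and 7.83 FPKM in siKMT2C and 6.26, 6.47 and 8.30 FPKM in siNC. The groups overlapped, and replicate 3 was the highest in both. DNMT1 made up 84.7%, 87.8% and 81.8% of that sum in siKMT2C and 79.0%, 73.6% and 75.7% in siNC, without overlap. For the TET genes the sums were 3.68, 2.94 and 2.71 FPKM in siKMT2C and 3.78, 3.95 and 3.40 FPKM in siNC, and siKMT2C replicate 1 fell among the siNC values. TET2 supplied 27.9%, 28.4% and 29.7% of the TET sum in siKMT2C against 41.9%, 40.8% and 36.9% in siNC. TET3 supplied 69.7%, 68.4% and 66.2% against 50.9%, 49.4% and 58.9%. The ratio of methyltransferase to TET FPKM was 1.99, 2.07 and 2.88 in siKMT2C and 1.66, 1.64 and 2.44 in siNC, and these ranges overlapped. These shares restate the members' levels, depend on the gene lengths used for FPKM and were not tested.

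**Figure D3:**
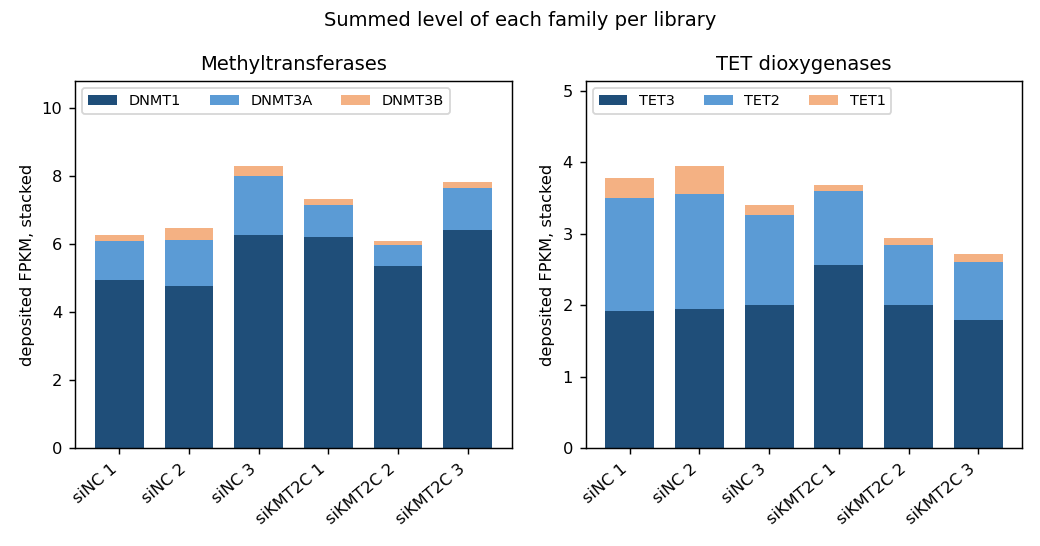
Stacked deposited FPKM of the methyltransferase genes (left) and TET genes (right) in each of the 6 libraries, with axes from 0. DNMT1 and TET3 form the largest part of each bar, except that TET2 comes close to TET3 in siNC replicates 1 and 2, and the TET2 part is smaller in the 3 siKMT2C bars.

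The sequence before the annotated starts of the TET genes is shown because CpG is the site that both families act on and because TET1 and TET2 were the members whose groups did not overlap. RefSeq promoter windows of 300 bases (250 before the start and 50 after, GRCh38.p14) were found for all 6 members, 15 windows in all. The motif searched was CG, which reads the same on both strands. The window at the first TET2 start held 13 CpG and the one at the first TET1 start held 10, and 51.7% and 56.4% of all 35116 windows had as many or more. The second TET2 start held 35, a number that 14.1% of windows reach, and the other TET1 windows held 6 and 11. The first TET3 start held 45 (3.48% of windows) and the second held 33 (17.2%). DNMT1 had 30, the only DNMT3B window had 3, and 6 DNMT3A windows had from 18 to 46. The DNMT1 and DNMT3B starts lay 36333 and 17467 bases inside the GENCODE genes, counted from the upstream ends. CpG at those upstream ends was not counted, so the DNMT1 and DNMT3B numbers do not describe them. Which of these starts the cells used was not measured. The 250 bases before the first TET2 start (chr4:105145625-105145874, plus strand), TET1 start (chr10:68560087-68560336, plus strand) and TET3 start (chr2:73984660-73984909, plus strand) follow, with each CpG in capitals.
TET2: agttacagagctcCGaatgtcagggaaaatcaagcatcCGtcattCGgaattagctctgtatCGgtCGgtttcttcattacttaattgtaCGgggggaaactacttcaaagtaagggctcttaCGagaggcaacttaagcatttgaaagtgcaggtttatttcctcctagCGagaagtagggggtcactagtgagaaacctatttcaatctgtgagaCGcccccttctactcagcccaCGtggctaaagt
TET1: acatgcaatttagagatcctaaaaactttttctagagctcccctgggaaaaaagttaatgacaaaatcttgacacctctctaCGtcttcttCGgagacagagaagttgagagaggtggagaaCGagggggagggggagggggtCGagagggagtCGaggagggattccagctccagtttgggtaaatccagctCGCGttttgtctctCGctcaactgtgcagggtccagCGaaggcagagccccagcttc
TET3: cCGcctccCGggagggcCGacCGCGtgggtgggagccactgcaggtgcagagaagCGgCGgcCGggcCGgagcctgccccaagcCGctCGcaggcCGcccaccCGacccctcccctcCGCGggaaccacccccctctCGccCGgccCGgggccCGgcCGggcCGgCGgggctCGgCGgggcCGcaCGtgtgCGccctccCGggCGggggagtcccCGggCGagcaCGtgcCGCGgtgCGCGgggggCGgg

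The 7-base word GTATAAA, which earlier results of these libraries had brought up, was counted in the 3′ UTR of each member as sense-strand letters, in the GENCODE 29 transcript with the longest coding sequence. Of 12320 tested genes with such a 3′ UTR, 15.1% carried it. The 1864 genes with it had a median log2 fold change of -0.12 and 63.6% negative values. The 10456 genes without it had 0.00619 and 49.2%. Of the genes with it 47 were called lower and 10 higher, and of those without it 69 and 86. The genes with and without it were not matched for 3′ UTR length. Because the word was picked from these same libraries, these values and its presence in a member are a description only. TET2 had 2 copies, at positions 870 and 1550 of a 3′ UTR of 3297 bases (counted from its 5′ end), and among genes whose own 3′ UTR was 0.5 to 2 times as long 27.5% had at least 1. KMT2C also had 2 copies. The other members had none, although the 3′ UTRs of DNMT3A (6424 bases) and TET3 (6000 bases) were longer and 40.1% and 38.7% of genes of like length carried the word. A second word from the same source, TCGGAGA, was present 1 time each, over coding bases and 3′ UTR, in DNMT1, DNMT3A, TET3 and KMT2C and in 9.64% of tested genes, and was not found in TET1, TET2 or DNMT3B. The part of these words in the members' values was not tested. Both TET2 sites are printed with 8 bases on either side and the word in capitals.
TET2 site at 870: atgtatatGTATAAAtattttaa
TET2 site at 1550: attaatttGTATAAAgaagtgaa

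Among 9 partners of maintenance methylation, 8 were tested and none was called, with 6 positive values and a median log2 fold change of 0.20. The groups did not overlap, higher in siKMT2C, for 2 of them, where 11.8% of all genes did so. UHRF1, which brings DNMT1 to hemimethylated CpG, was at 42.4, 41.6 and 43.1 CPM in siKMT2C and 39.3, 34.8 and 39.7 CPM in siNC (0.16, SE 0.13, edgeR adjusted p = 0.582). The groups did not overlap, but the gap was small. PCNA, the sliding clamp that DNMT1 binds, had 177.8, 210.6 and 190.7 against 168.0, 142.1 and 133.3 CPM (0.39, SE 0.14, edgeR adjusted p = 0.207). The chromatin factors CDCA7 (0.41, SE 0.21) and CDCA7L (0.37, SE 0.21) were not called and their groups overlapped. In a list of 30 S phase genes, chosen because DNMT1 and its partners follow replication, 28 values were positive, where 49.7% of all genes were. The median was 0.37, above the 0.20 of DNMT1, and PCNA is in both lists. Of the 30 genes 13 were higher without overlap and 2 were called higher, where 11.8% and 0.69% of all genes were. CDC6 (0.90, SE 0.13, edgeR adjusted p = 0.0263) and CDC45 (0.88, SE 0.16, edgeR adjusted p = 0.0452) rose, and GINS1 (0.72, SE 0.14) had the next smallest p. Both calls were lost when siKMT2C replicate 1, 2 or 3 or siNC replicate 1 or 2 was left out, and that of CDC45 also without replicate 3 of both groups. How far the share of cells in S phase bears on the DNMT1 value was not tested.

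None of 11 genes of the methyl-CpG-binding domain and zinc finger families, which hold readers of methylated DNA and relatives that do not bind it, was called, with a median of -0.09 and 7 negative values. The zinc finger reader ZBTB38 was at 65.4, 62.6 and 45.6 CPM in siKMT2C and 83.5, 80.9 and 65.9 CPM in siNC (-0.41, SE 0.18, edgeR adjusted p = 0.3). MBD5 (-0.27, SE 0.19) and SETDB1 (-0.19, SE 0.15), a histone methyltransferase with a methyl-CpG-binding fold, had overlapping groups. Of the 16 genes for active demethylation and base excision repair 14 were tested and none was called, with a median of 0.07. The glycosylase TDG, which excises the products of TET oxidation, was at 35.5, 38.4 and 33.5 against 37.0, 27.96 and 23.8 CPM. CXXC5, a CXXC-domain protein that binds TET2, had 4.34, 3.40 and 3.69 CPM in siKMT2C and 5.32, 7.27 and 5.18 CPM in siNC (-0.63, SE 0.22, edgeR adjusted p = 0.202). The related CXXC4 was near the floor, with 4 counts in all libraries together. The DNA glycosylases NEIL1 (-0.78, SE 0.29) and NEIL3 (0.48, SE 0.21) had values in opposite directions and were not called.

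**Figure D4:**
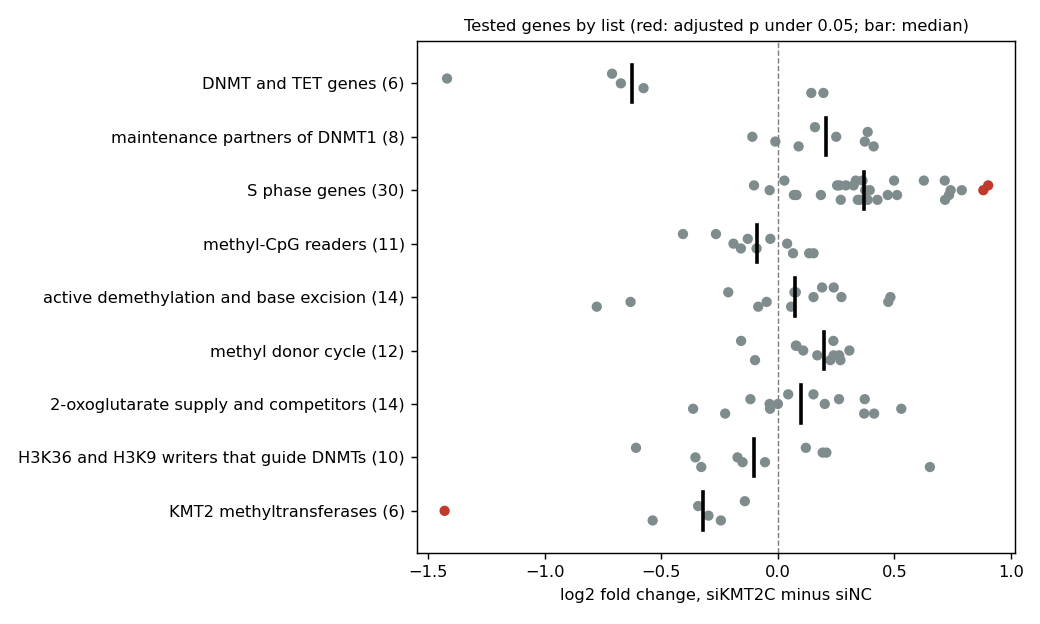
Log2 fold change (siKMT2C minus siNC) of each tested gene in the DNMT and TET set and in 8 lists of related genes, with the number tested in brackets; the black bar is the list's median and red points passed the edgeR test. Red points are CDC6, CDC45 and the depleted KMT2C, and the DNMT and TET set has its median at -0.62.

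Supply of the methyl donor and of the TET cosubstrate was described from 2 further lists. In the methyl donor cycle 12 of 15 genes were tested, 10 values were positive, the median was 0.20 and none was called. MTHFD1, a folate enzyme, was at 116.2, 99.2 and 115.0 CPM in siKMT2C and 92.5, 91.1 and 91.8 CPM in siNC (0.26, SE 0.12, edgeR adjusted p = 0.327). ADK (0.27, SE 0.15) and AHCY (0.17, SE 0.11), which clear adenosine and S-adenosylhomocysteine, also had groups that did not overlap. Of the 12 genes tested 3 were higher and 1 was lower without overlap, where 11.8% and 12.3% of all genes were. MAT2A, which makes the methyl donor S-adenosylmethionine, went the other way without overlap, at 269.9, 279.5 and 266.4 against 327.8, 301.5 and 280.5 CPM (-0.16, SE 0.11, edgeR adjusted p = 0.537). In the list of 2-oxoglutarate metabolism all 14 genes were tested, with a median of 0.10 and no call. The succinate dehydrogenase subunit SDHB had 101.6, 97.8 and 99.0 against 70.3, 76.0 and 60.4 CPM (0.53, SE 0.13, edgeR adjusted p = 0.0983). Its call depended on the setting, as DESeq2 gave an adjusted p of 0.0282. IDH3A, a mitochondrial isocitrate dehydrogenase subunit, was at 0.41 (SE 0.14) and fumarase, FH, at -0.36 (SE 0.15), and both were called only after correction for GC content and length (adjusted p of 0.0473 and 0.0167).

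Histone methyltransferases that help to place the DNMT enzymes were not called either, with a median of -0.10 over 10 genes. NSD1, which writes the H3K36 dimethylation that DNMT3A reads, was at 146.5, 184.3 and 169.3 CPM in siKMT2C and 276.8, 262.3 and 223.4 CPM in siNC. The groups did not overlap (-0.61, SE 0.14, edgeR adjusted p = 0.0816), and DESeq2 gave an adjusted p of 0.0151. Its paralog NSD2 had the opposite sign, at 105.4, 97.9 and 66.8 against 68.3, 48.0 and 55.5 CPM (0.65, SE 0.21, edgeR adjusted p = 0.171), and ASH1L was at -0.33 (SE 0.15). Of the 6 KMT2 methyltransferases only KMT2C was called, with SETD1B (-0.54, SE 0.20) and KMT2A (-0.24, SE 0.12) next by p. All 6 values were negative, with a median of -0.32. KMT2C, SETD1B and KMT2A, 3 of the 6, were lower without overlap, where 12.3% of all genes were.

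Germline genes that somatic cells hold silent through promoter methylation were near or at 0. Of 20 such genes 16 had no count in any library, among them DAZL, MAEL, TEX101, STRA8, PRAME and the MAGE genes listed. Among all 58302 gene entries, 28494 also had no count in any library. Promoter methylation of these genes was not measured. The whole list summed to 204 counts, of which SOHLH2 gave 119, TDRD6 54, SYCP3 30 and DDX4 1. SOHLH2, the only gene tested, was at 1.10, 2.44 and 0.921 CPM in siKMT2C and 1.43, 0.554 and 0.845 CPM in siNC (0.63, SE 0.50, edgeR adjusted p = 0.578), and the groups overlapped.

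For each member the 2 genes with the most similar log2 CPM over the 6 libraries, among 12686 or 12687 genes with a symbol and a mean log2 CPM of at least 1, were looked up by Pearson's r as a description. They were ZFHX4 (r = 0.998) and TRAK2 (0.993) for TET2, and TGFB2 (0.998) and MARK1 (0.988) for TET1. For DNMT3A they were JAGN1 (0.998) and FOXC2 (0.994), and for DNMT3B MAN2B2 (0.994) and VSIG10L (0.992). DNMT1 was followed by JOSD2 (0.997) and SEC24C (0.997), and TET3 by PLK2 (0.983) and TMEM50B (0.971). With 6 libraries high values are common: 139 genes passed r = 0.95 for DNMT1, 113 for TET2, 100 for DNMT3A, 49 for TET1, 23 for DNMT3B and 5 for TET3. None of these 12 genes was called in the main edgeR fit, with group as the only term. ZFHX4 was called by DESeq2 (adjusted p = 0.0291) and by edgeR with a replicate block (0.0352). After GC and length correction ZFHX4 (0.0412), TRAK2 (0.0189), TGFB2 (0.04998) and JOSD2 (0.0423) passed. All share the libraries and their scaling with the member they follow.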

How the data were processed

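For 6 libraries the authors deposited read counts of each gene as whole numbers, with FPKM values beside them, per the file headers. The submitters' processing notes name CASAVA 1.8 and TopHat2 2.0.6, and the mouse build mm10, although the identifiers are human Ensembl genes. For the counting program, strand setting, annotation and human build, the entry is not given in the sources used here. FPKM as deposited equalled the counts rescaled by 1 length per gene (to a relative 7.72e-05 in 13748 genes), and was used for levels between genes only. Symbols, positions, transcripts and 3′ UTRs come from GENCODE 29 (GRCh38, 99.55% of identifiers matched), and promoters from RefSeq (GRCh38.p14).

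Counts were fitted with edgeR 4.0.16 in R 4.3.3 (default filter on low counts, TMM scaling, robust quasi-likelihood F test, group as the only term), with Benjamini-Hochberg adjustment over all 15063 genes tested. Dividing the absolute log2 fold change by the root of F gave its standard error. Single values had an exact permutation test on log2 CPM (prior count 2). No list was tested as a set.

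The members, the lists and the rule for named genes were chosen with earlier results of these data known. The rule takes the 6 members, KMT2C, at most 3 tested genes per list by smallest p plus any called, and the 2 most similar genes per member. Genes named for a role, for a count of 0 or beyond that rule (UHRF1, TDG, MAT2A, CXXC4, DNMT3L, S1PR2, TET2-AS1 and the untested markers and germline genes) were chosen after their values were seen. Settings tried were DESeq2 1.42.0, limma-voom (limma 3.58.1), a replicate block, scaling by median ratios (RLE) or by library size, filters of none or of CPM 1 in 3 libraries, a minimum of 1.5-fold (glmTreat, for the count of genes called), a loess correction (span 0.3) for GC content and length of the longest transcript with and without the block, and leaving out each library. Leaving out replicate 3 of both groups, and levels per kilobase of the longest transcript, were added after seeing the data. Figures used matplotlib 3.10.9 in Python 3.11.15.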

Additional observations from a re-analysis of the deposited data

How the results depend on the processing

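The direction of DNMT1, DNMT3A, DNMT3B, TET1 and TET2 was kept in all 16 other settings, and that of TET3 in 15. With each library left out in turn, the log2 fold change ran from -0.83 to -0.64 for TET2, from -1.74 to -1.06 for TET1, from -0.0086 to 0.25 for TET3, from -0.83 to -0.35 for DNMT3A, from -0.94 to -0.45 for DNMT3B and from 0.12 to 0.32 for DNMT1. TET2 was -0.71 in DESeq2, -0.71 with a replicate block, -0.59 after GC and length correction, -0.59 with that correction and the replicate block, and -0.76 without replicate 3 of both groups, and was called in each. TET1 was -1.85 without replicate 3 of both groups, where it was called. Members called were 1 in DESeq2, 1 with the replicate block, 1 after GC and length correction, 1 with that correction and the block, 2 without replicate 3 of both groups, and 0 to 2 with each library left out. The 226 genes called in all became 791 in DESeq2, 968 with the replicate block, 1310 after GC and length correction, 1310 with the block added, 648 without replicate 3 of both groups, 18 beyond a 1.5-fold minimum (glmTreat), and 16 to 620 with each library left out. The cause was not tested. PLK2 ran from -0.10 (without siKMT2C replicate 1) to 0.39, and PMEL, a melanocyte marker, from -0.50 to 0.065 (without siNC replicate 1), so both changed sign.

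The replicate numbers were not treated as pairs in the main fit. The deviations of same-numbered libraries had correlations of 0.02, 0.11 and 0.39, and siKMT2C replicate 2 had 0.32 with siNC replicate 1. These values cannot settle whether the numbers mark pairs. With a replicate block the genes called rose from 226 to 968, and TET2 had an edgeR adjusted p of 0.022. Levels per kilobase of the longest transcript moved for DNMT1 (19.1 in siKMT2C and 16.7 in siNC), DNMT3A (1.68 and 2.51), DNMT3B in siKMT2C (0.229), TET2 (2.41 and 3.95) and TET3 (2.94 and 2.66), by the change of length alone. Low counts limit DNMT3B and TET1, and 3 libraries per group cannot reach an exact permutation p under 0.1.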

Other observations

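The length by which each member's deposited FPKM was divided, worked out from counts and FPKM, was 17092 bases for DNMT1, 17069 for DNMT3A, 5895 for DNMT3B, 9288 for TET1, 27286 for TET2 and 15579 for TET3. In GENCODE 29 the exons of all transcripts of each gene merged to 9796, 12020, 4630, 9288, 16474 and 12271 bases, and the longest single transcripts measured 5408, 9501, 4336, 9288, 10166 and 11388 bases. Over the 13748 genes with at least 10 counts in every library the median of the first length over the merged exons was 1.51. FPKM therefore places TET2 lower, relative to TET1, than a length taken from a single transcript does. This bears on the order of levels between genes and not on the comparison of siKMT2C with siNC within a gene.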
